A study of Arabidopsis thaliana with 4 samples.

Results

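Contacts between the arms of different chromosomes were described in Hi-C maps of Arabidopsis thaliana endosperm, with leaf as the comparison. A member was a pair of 100 kb bins on different chromosomes with both bins in a chromosome arm, that is, outside the pericentromeres, the heterochromatic knob of chromosome 4 and the 5 bins at each chromosome end. Chromosome 1 with 2 was left out, because the leaf map joins segments of these chromosomes, so 9 of the 10 chromosome pairs entered. Of 541742 interchromosomal pairs of bins, 295215 were members (54.5%), and they were formed by 914 of the 1168 bins with signal. Apart from leaving out chromosome 1 with 2, the rule uses positions among bins with signal, and the ends were counted from the outermost such bins.

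The endosperm samples were F1-endosperm of the cross Col_wt x Col_wt, and the leaf samples were F1-leaf of the same cross at 4 weeks of age. All plants were wild type of the ecotype Col-0, were grown in long days and received no treatment. The labels give 2 replicates per tissue, but each deposited map holds both replicates together, so each tissue was 1 measurement and no replicate spread exists. How endosperm was separated from embryo and seed coat is not given in the labels, and DNA contacts hold no RNA against which a tissue label could be checked.

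Hi-C crosslinks chromatin, cuts it and ligates the ends, so that each sequenced junction records a contact between DNA that was near in the nucleus. In Arabidopsis, gene-rich arms leave compact, repeat-rich pericentromeres at the nuclear periphery as loops, and chromosome ends tend to gather near the nucleolus. Endosperm is the nutritive tissue of the seed, which carries an extra maternal genome and in which imprinted genes are expressed from one parental allele. A classical question about such nuclei is whether arms of different chromosomes meet at matching distances from their centromeres.

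Contact was read as the mean balanced signal of a set of pairs over the mean of all interchromosomal pairs, called the level below, so that a level of 1 is the interchromosomal average. The maps held 25033672 contacts in endosperm and 18557893 in leaf, of which 14617359 in endosperm and 11034545 in leaf lay between chromosomes. Members took 6713020 contacts in endosperm and 5223691 in leaf, which is 46.0% of the interchromosomal contacts in endosperm and 47.4% in leaf. A member pair had a median of 22 contacts in endosperm and 17 in leaf, and no pair was empty. Intervals are 95% counting intervals and cover counting error only, and a difference is called higher or lower where its interval excludes 0 on the log2 scale. Chromosome arms, arm pairs and bins are parts of 1 map per tissue and not replicates.

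Arms contacted the arms of other chromosomes at close to the average level in both tissues, slightly less in endosperm. The level was 0.997 in endosperm (0.997 to 0.998) and 1.02 in leaf (1.018 to 1.019), a log2 difference of -0.030 (-0.031 to -0.029). It was lower in endosperm in 9 of 9 chromosome pairs, with log2 differences from -0.042 for chromosome 1 with 4 to -0.0067 for chromosome 2 with 4. Classes that meet pericentromeres lay on the other side. Pericentromeres with arms had a level of 0.982 in endosperm and 0.914 in leaf, and the knob with arms had 0.972 in endosperm and 0.931 in leaf. The direction for arms was read against the interchromosomal mean. With each pair divided by the product of both bins' interchromosomal means, the level was 1.004 in endosperm and 0.999 in leaf. The log2 difference was then 0.0063 (0.0051 to 0.0075). Members form part of the bin means, so this scaling takes out part of the level and cannot decide the direction. These bin means include chromosome 1 with 2, which the leaf map joins. Taken by arm, the log2 difference was -0.0005 to 0.0015 for arms of chromosomes 3, 4 and 5. For arms of chromosomes 1 and 2 it was -0.016 to 0.17.

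The 9 chromosome pairs contain 36 pairs of arms, named here by chromosome and by N for the arm before the centromere and S for the arm after it. Arms differ widely in size. The metacentric chromosomes 1, 3 and 5 have arms of 70 to 127 member bins, whereas chromosomes 2 and 4 are acrocentric, with north arms of 12 and 14 bins that lie between the nucleolus organizer end and the pericentromere. Of the 36 arm pairs, 24 were lower in endosperm (66.7%), 9 were higher (25.0%) and 3 had an interval that held 0.

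This division followed the short arms. Among the 23 arm pairs without 2N or 4N, 22 were lower in endosperm and 0 were higher, with log2 differences from -0.054 to -0.0073. Their levels ran from 0.983 to 1.02 in endosperm and from 1.004 to 1.05 in leaf. The largest fall was that of 3N with 4S, at 0.987 in endosperm and 1.02 in leaf (log2 -0.054, -0.061 to -0.046). It was followed by 3N with 5N, at 1.01 in endosperm and 1.05 in leaf (log2 -0.050). The next were 1S with 3S (log2 -0.047) and 1N with 3N (log2 -0.044). The intervals of all 4 overlapped that of 1N with 4S (log2 -0.043), so their ranking is not settled. Arm 3N or 3S had a part in all 4, but also in small falls. Among these were 3S with 5S (log2 -0.0073, interval across 0) and 3N with 5S (log2 -0.021). Relative to the interchromosomal mean the long arms thus formed a narrow band in each tissue, with endosperm below leaf. Over the expectation from both bins' interchromosomal means the log2 difference was -0.0005 to 0.0015 for arms 3N, 3S, 4S, 5N and 5S. It was 0.0082 for 2S, -0.016 for 1N and 0.038 for 1S. This expectation divides out the mean contact of an arm's own bins, so values near 0 cannot show whether the order holds.

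**Figure D1:**
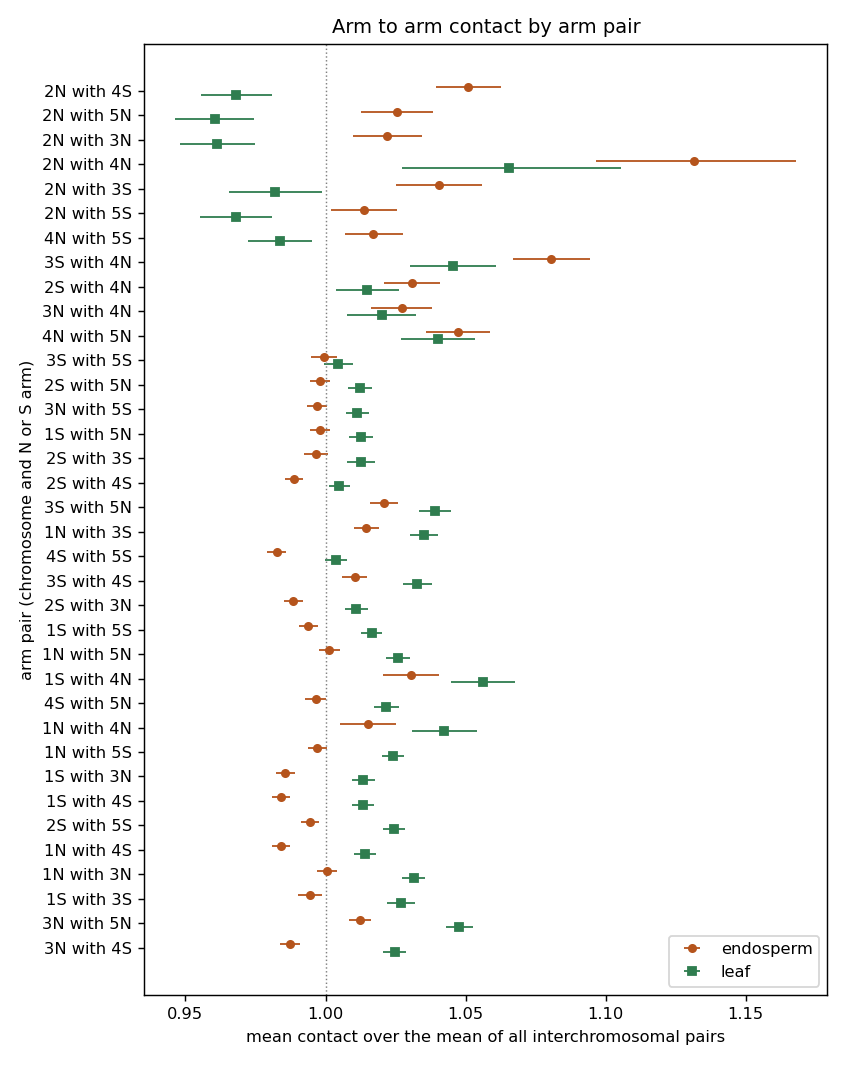
Mean contact of each of the 36 arm pairs over the interchromosomal mean (x axis, a ratio; points, with 95% counting intervals as bars) in endosperm (circles) and leaf (squares), sorted by the log2 ratio of endosperm over leaf. The 6 pairs with arm 2N stand at the top with endosperm at 1.01 to 1.13, and the pair 2N with 4N has the highest mean in both tissues, with an interval in leaf that overlaps those of other pairs.

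All 6 arm pairs with 2N were higher in endosperm, with log2 differences from 0.067 to 0.12. The largest rise was that of 2N with 4S, at 1.05 in endosperm and 0.968 in leaf (log2 0.12, 0.094 to 0.14). The pair 2N with 5N had 1.03 in endosperm and 0.960 in leaf (log2 0.095), and 2N with 3N had 1.02 in endosperm and 0.961 in leaf (log2 0.088). The fourth, 2N with 4N, had 1.13 in endosperm and 1.07 in leaf (log2 0.087). The intervals of these 4 overlapped, so their order is not settled. In leaf, 4 of these 6 pairs were the lowest of all 36, namely 2N with 5N, 3N, 5S and 4S at 0.960 to 0.968. Arm 2N as a whole had a level of 1.03 in endosperm (1.03 to 1.04) and 0.970 in leaf (0.964 to 0.976), a log2 difference of 0.091 (0.079 to 0.10). Over the expectation from both bins' interchromosomal means it had 1.008 in endosperm and 0.897 in leaf, a log2 difference of 0.17. The bin means in this expectation include chromosome 1 with 2, and for 2N they were 1.03 in endosperm and 1.08 in leaf. Contact with chromosome 1 thus enters the divisor, so this value is not a separate measure of the rise.

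Arm 2N carries a feature of the leaf map that moves with this result. The first 1.5 Mb of chromosome 2, which holds 10 of the 12 bins of 2N, is joined in the leaf map to the last 7.8 Mb of chromosome 1. The mean contact of these 10 bins with chromosome 1 was 1.01 in endosperm and 1.37 in leaf, and none of it is counted among the members. The 72 arm bins of the joined segment of chromosome 1 had a mean contact with chromosome 2 of 1.00 in endosperm and 1.26 in leaf. A balanced map gives every bin the same total. Members with a bin of the chromosome 2 segment had a level of 1.04 in endosperm and 0.969 in leaf (log2 0.098). Those with a bin of the chromosome 1 segment had 1.005 in endosperm and 1.03 in leaf (log2 -0.034), not lowered in leaf. Members with no bin in a joined segment had 0.995 in endosperm and 1.02 in leaf (log2 -0.032). Without both segments, 2 bins of 2N were left. The log2 difference was then 0.068 (0.0054 to 0.13) for 2N with 3N and 0.063 (0.0049 to 0.12) for 2N with 4S, and the intervals of the other 4 pairs held 0. The part of the junction in the difference was not tested further.

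Arm 4N was the other short arm, without a junction. It had a level of 1.03 in endosperm (1.03 to 1.04) and 1.03 in leaf (1.02 to 1.03), and its log2 difference of 0.0073 had an interval that held 0 (-0.0011 to 0.016). The 8 long arms lay below it, at 0.990 to 1.007 in endosperm and at 1.013 to 1.026 in leaf, where the interval of 4N overlapped those of 1N, 3S and 5N. Over the expectation from both bins' interchromosomal means, 4N had 1.002 in endosperm and 1.002 in leaf (log2 -0.0001). Arms 3N, 3S, 4S, 5N and 5S had log2 differences of -0.0005 to 0.0015. This expectation divides out the mean contact of the arm's own bins, so it cannot show whether 4N stands apart. Its partners divided. The pairs of 4N with 5S, 3S, 2S and 2N were higher in endosperm, those with 1N and 1S were lower, and those with 3N and 5N had intervals that held 0. For 2S the interval barely excluded 0 (log2 0.022, 0.00095 to 0.044). Without the joined segments the intervals with 2S (-0.015 to 0.028) and with 2N (-0.10 to 0.23) held 0. Those with 5S and 3S then stayed higher, and those with 1N and 1S stayed lower. For 4N with 5S the level was 1.02 in endosperm and 0.984 in leaf (log2 0.048), and for 4N with 3S it was 1.080 in endosperm and 1.045 in leaf (log2 0.048). For 4N with 1N it was 1.02 in endosperm and 1.04 in leaf (log2 -0.038), and for 4N with 1S it was 1.03 in endosperm and 1.06 in leaf (log2 -0.035). Both short north arms had the highest mean of the 36 arm pairs with each other in both tissues, at 1.13 in endosperm (1.096 to 1.17) and 1.07 in leaf (1.03 to 1.11), over 168 pairs of bins with 3897 contacts in endosperm and 2888 in leaf. In leaf this interval overlapped those of other pairs, such as 1S with 4N. Without the joined segments, which left 28 pairs of bins, the mean was 1.07 in endosperm, where 3S with 4N had 1.083, and 1.02 in leaf, where 1S with 4N had 1.088.

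The lowest arm pairs in endosperm were 4S with 5S (0.983), 1N with 4S (0.984), 1S with 4S (0.984) and 1S with 3N (0.986), all between long arms, and in leaf these 4 stood at 1.004 to 1.01. The highest were 2N with 4N, 3S with 4N, 2N with 4S and 4N with 5N (1.047) in endosperm, and 2N with 4N, 1S with 4N (1.06), 3N with 5N (1.048) and 3S with 4N (1.045) in leaf. The SD of the log2 level over the 36 arm pairs was 0.041 in endosperm and 0.036 in leaf. Without the pairs of 2N it was 0.030 in endosperm and 0.022 in leaf. Over these 30 pairs the tissues' log2 levels had a correlation of r = 0.53, given as a description of 1 map each, and over all 36 pairs r was 0.20.

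Position along the arm was measured as relative position, from 0 at the pericentromere border to 1 at the inner border of the chromosome end, and each pair was divided by the mean of its arm pair so that arms of unlike level could be joined. Pairs of bins at equal relative position contacted each other more than pairs at unequal position in both tissues. Pairs that differed by less than 0.1 of the arm had a mean of 1.02 in endosperm and 1.02 in leaf, and pairs that differed by more than 0.5 had 0.986 in endosperm and 0.972 in leaf. The log2 ratio of equal over unequal was 0.044 in endosperm (0.041 to 0.047) and 0.065 in leaf (0.061 to 0.069). It was above 0 in 32 of 36 arm pairs in endosperm and in 35 of 36 in leaf.

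The difference between the tissues in this ratio was -0.021 (-0.026 to -0.016), and it lay on the unequal side. Contact declined with each step of 0.1 in position difference in both tissues, but at a difference of 0.9 to 1 it was 0.968 in endosperm (0.961 to 0.976) and 0.918 in leaf (0.910 to 0.927). The tissue difference depended on the mean contact of single bins. With the means of both bins within the arm pair divided out, equal over unequal was 0.052 in endosperm and 0.056 in leaf, and the difference of -0.0046 (-0.0096 to 0.00048) was no longer called. Measured in Mb from the pericentromere border, under 1 Mb apart against over 5 Mb apart, the ratio was 0.023 in endosperm and 0.022 in leaf, a difference of 0.00075 whose interval held 0.

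**Figure D2:**
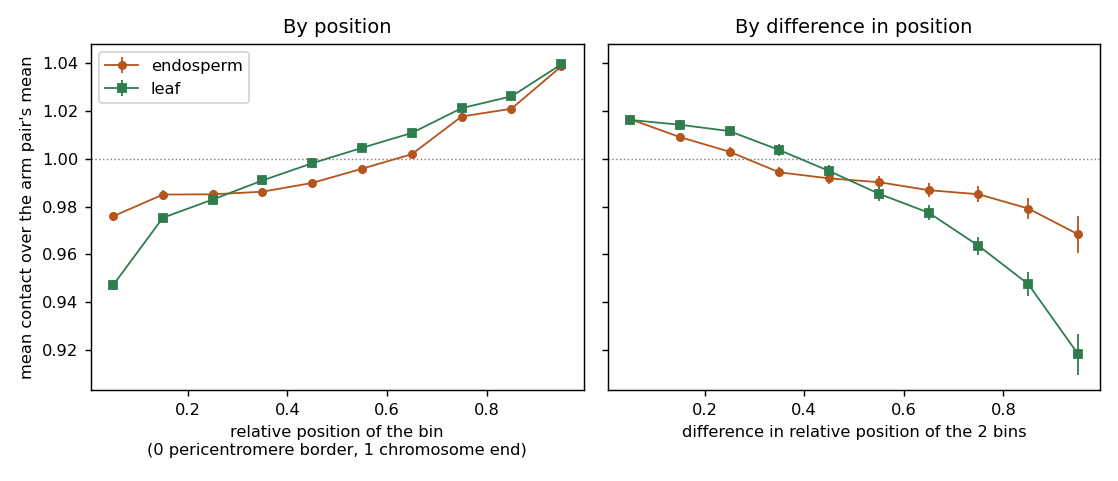
Mean contact over the arm pair's mean (y axis, a ratio; bars, 95% counting intervals) by relative position of a bin (left) and by the difference in relative position of both bins (right), in endosperm (circles) and leaf (squares). Contact climbs toward the chromosome end in both tissues, and next to the pericentromere endosperm is at 0.976 and leaf at 0.947.

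Contact rose outward along the arms in both tissues. Bins in the innermost 0.1 of an arm had a mean of 0.976 in endosperm (0.974 to 0.978) and 0.947 in leaf (0.945 to 0.949), and bins in the outermost 0.1 had 1.04 in endosperm and 1.04 in leaf. Gene cover, the percent of a bin inside annotated genes, was 57.2% in the innermost 0.1 and 71.7% in the outermost, so the outer arms were also the gene-richer ones. All 10 arms had a higher mean in outer bins (relative position over 0.7) than in inner bins (under 0.3) in both tissues. These means by arm are over the mean of all members and not over the arm pair's mean, so they also hold the level of the arm. In endosperm the outer means ran from 1.02 to 1.05 and the inner means from 0.974 to 1.02. In leaf the outer means ran from 0.957 to 1.04 and the inner means from 0.937 to 0.981.

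The gain was concentrated where both bins were outer. Outer with outer pairs had a mean of 1.078 in endosperm and 1.087 in leaf, inner with inner pairs had 0.984 in endosperm and 0.963 in leaf, and inner with outer pairs had 0.985 in endosperm and 0.969 in leaf. The log2 ratio of outer-outer over inner-inner was 0.13 in endosperm (0.13 to 0.14) and 0.17 in leaf (0.17 to 0.18). It was above 0 in 35 of 36 arm pairs in endosperm and in 34 of 36 in leaf. Inner with inner pairs did not exceed inner with outer pairs: that ratio was -0.0013 in endosperm (-0.0060 to 0.0033) and -0.0081 in leaf (-0.013 to -0.0028).

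**Figure D3:**
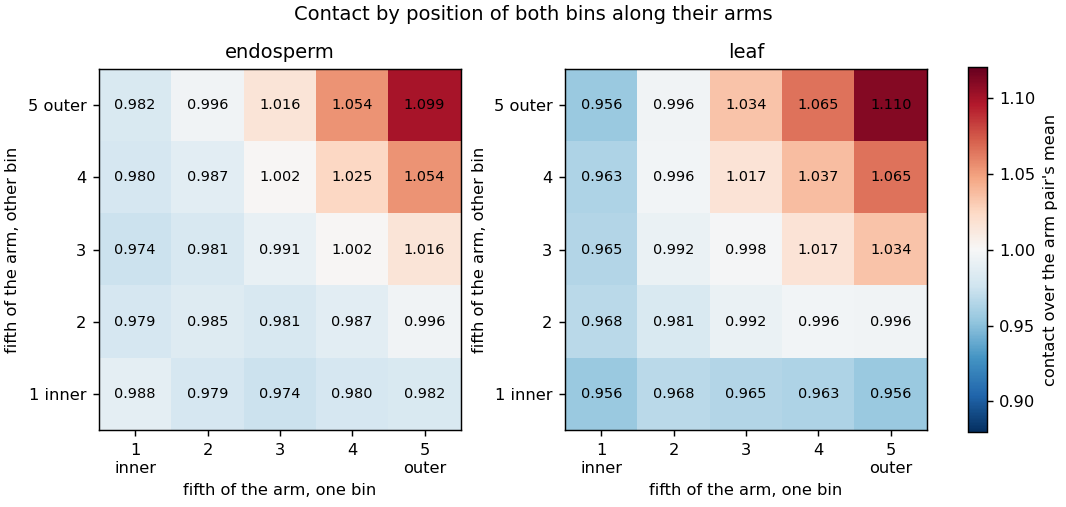
Mean contact over the arm pair's mean (colour and printed ratio) for each combination of 5 equal parts of the arms, from 1 next to the pericentromere to 5 next to the chromosome end, in endosperm (left) and leaf (right). The corner of outer parts reaches 1.099 in endosperm and 1.11 in leaf, and the inner corner is at 0.988 in endosperm and 0.956 in leaf.

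With each arm cut into 5 equal parts, contact of the outermost parts with each other was 1.099 in endosperm and 1.11 in leaf, and that of the innermost parts was 0.988 in endosperm (0.984 to 0.992) and 0.956 in leaf. The innermost part with the other 4 parts had 0.974 to 0.982 in endosperm, below its contact with itself although the interval of the outermost part reached it, and 0.956 to 0.968 in leaf, where its contact with itself was not above them. Away from the outer bins a smaller preference for equal position was left. Among pairs with neither bin outer, equal over unequal was 0.023 in endosperm (0.019 to 0.028) and 0.035 in leaf (0.030 to 0.041). Middle with middle pairs exceeded inner with outer pairs by 0.0045 in endosperm (0.00072 to 0.0083) and by 0.048 in leaf (0.044 to 0.052), a difference of -0.044 (-0.049 to -0.038). In the balanced maps the middle of the arm was thus near the inner part in endosperm, at 0.988 for middle with middle pairs, and farther from it in leaf, at 1.002. The middle contrasts were not computed under other scalings, under which the outer against inner difference turned, as given below.

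The contrast of outer-outer over inner-inner was smaller in endosperm by -0.043 (-0.050 to -0.035) in the balanced maps. This direction rested on the balancing. In recovered counts without balancing the contrast was 0.31 in endosperm and 0.27 in leaf, a difference of 0.035 (0.027 to 0.043) the other way. With both bins' interchromosomal means divided out it was 0.023 in endosperm and -0.0021 in leaf, a difference of 0.025 (0.017 to 0.033). Dividing out bin means takes out most of the contrast itself in each tissue, so this difference does not bear on the balancing. With pairs restricted to bins in the middle 3 of 5 groups of gene cover it was 0.13 in endosperm and 0.17 in leaf.

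Gene cover of the bins was also used to sort pairs, since gene-rich stretches are known to associate with each other in nuclei of many species. Pairs with both bins in the top or both in the bottom 20% of gene cover were set over pairs with one bin in each. The log2 ratio was 0.055 in endosperm (0.050 to 0.061) and 0.055 in leaf (0.049 to 0.062), a difference of -0.0002 (-0.0085 to 0.0081). This ratio joins parts that differed in opposite directions. Gene-rich with gene-rich pairs had a mean of 1.04 in endosperm and 1.05 in leaf, and over unlike pairs their ratio was lower in endosperm (0.085 in endosperm, 0.11 in leaf, difference -0.025, -0.035 to -0.016). Gene-poor with gene-poor pairs had 0.994 in endosperm and 0.972 in leaf, and their ratio was higher in endosperm (0.023 in endosperm, -0.0058 in leaf, difference 0.029, 0.018 to 0.039). Gene cover and relative position had a correlation of r = 0.44 over the 914 bins, so both sortings share bins.

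Each of the 914 arm bins was then followed by its mean contact over all its member pairs, divided by the mean of all members. These bin levels ran from 0.901 to 1.15 in endosperm, with a median of 1.00, and from 0.878 to 1.07 in leaf, with a median of 1.003. The SD of the log2 bin level was 0.041 in endosperm and 0.050 in leaf, against 0.012 in endosperm and 0.014 in leaf given by counting error. The bins with the lowest levels were the same in both tissues, at 5.9 to 6.0 Mb of chromosome 4 (0.901 in endosperm, 0.878 in leaf) and at 14.5 to 14.6 Mb of chromosome 5 (0.906 in endosperm, 0.881 in leaf), both beside a pericentromere. Over all bins the tissues' log2 levels had a correlation of r = 0.70. Within a tissue, r with relative position was 0.64 in endosperm and 0.73 in leaf, and r with the bin's unbalanced count was 0.49 in both.

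Of the 914 bins, 125 were higher in endosperm (13.7%) and 125 were lower (13.7%). Outside the joined segments these lay at different places along the arm. In the innermost 0.1 of the arm 51 of 89 bins were higher and 0 were lower, with a median log2 difference of 0.045. From 0.1 to 0.3 of the arm 30 of 182 bins were higher and 14 lower, and from 0.3 to 0.7 there were 14 higher and 76 lower among 324 bins, with a median of -0.014. In the outer part, from 0.7 to 1, 16 of 237 bins were higher and 27 lower. In the balanced maps, arm bins next to the pericentromeres thus had more contact with other arms in endosperm, and those of the middle arm less, relative to the mean of all members. Bin levels were not computed under the other scalings, under which the outer against inner difference turned.

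**Figure D4:**
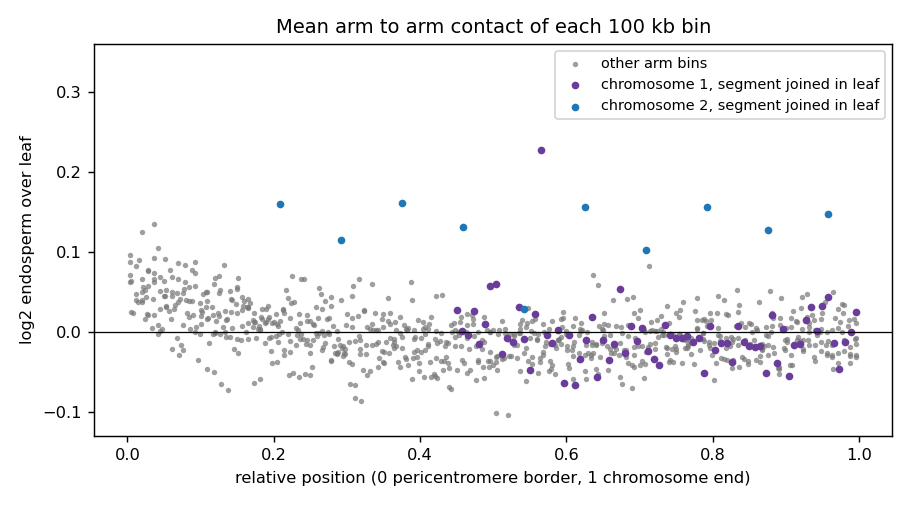
Log2 ratio of endosperm over leaf of each arm bin's mean contact with the arms of other chromosomes (y axis) by its relative position (x axis), with bins of the segments that the leaf map joins in colour. Bins next to the pericentromere lie mostly above 0, the 10 bins of the chromosome 2 segment lie at 0.029 to 0.16, and 1 bin of chromosome 1 stands highest at 0.23.

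The 5 bins with the largest rise lay in the joined segments. The first was at 24.2 to 24.3 Mb of chromosome 1, with a level of 1.15 in endosperm and 0.984 in leaf (log2 0.23, 0.19 to 0.26). It holds PHE1 and PHE2, type I MADS-box genes, of which PHE1 is paternally expressed in endosperm. The other 4 were bins of 2N at 1.2 to 1.3, 1.4 to 1.5, 0.7 to 0.8 and 0.9 to 1.0 Mb, with levels of 1.002 to 1.05 in endosperm and 0.897 to 0.939 in leaf and log2 differences of 0.16 each. Outside the joined segments the largest rises were at 7.1 to 7.2 Mb of chromosome 2 (1.06 in endosperm, 0.967 in leaf, log2 0.13), in a bin with 1.56 times the median unbalanced count in endosperm and 1.38 times in leaf, and at 12.6 to 12.7 Mb of chromosome 1 (0.991 in endosperm, 0.909 in leaf, log2 0.12). All 5 of the largest rises there were within 0.05 of the arm from a pericentromere.

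The largest falls lay in the middle or inner arms. They were at 12.1 to 12.2 Mb of chromosome 4 (0.954 in endosperm, 1.03 in leaf, log2 -0.10) and at 6.6 to 6.7 Mb of chromosome 1 (0.978 in endosperm, 1.05 in leaf, log2 -0.10), followed by the adjoining bins at 20.9 to 21.1 Mb of chromosome 1 (log2 -0.087 and -0.082) and by 9.6 to 9.7 Mb of chromosome 3 (log2 -0.072). Their unbalanced counts were 0.928 to 1.11 times the median bin in both tissues.

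Over larger areas the arms of different chromosomes changed little between the tissues. Members were gathered into 2974 blocks of 1 Mb by 1 Mb, of which 1 was at least 1.2-fold higher in endosperm (0.0336%) and 0 were at least 1.2-fold lower. Among all 5879 interchromosomal blocks, the same limits were passed by 105 upward (1.79%) and 101 downward (1.72%), 206 in all (3.5%). That set is of all chromosome pairs, also chromosome 1 with 2, whose segments the leaf map joins and which the members leave out. By the interval alone, 125 arm to arm blocks were higher in endosperm (4.2%) and 562 lower (18.9%), against 1135 higher (19.3%) and 863 lower (14.7%) among all interchromosomal blocks. The median log2 difference of the arm to arm blocks was -0.032, and the excess of lower blocks is read against the interchromosomal mean, the reference under which the whole class was lower. Block levels ran from 0.851 to 1.25 in endosperm and from 0.839 to 1.31 in leaf, and the SD of their log2 levels was 0.070 in endosperm and 0.081 in leaf, against 0.032 in endosperm and 0.036 in leaf from counting error. The log2 differences of the arm to arm blocks had an SD of 0.071, against 0.048 from counting error. The block past the limit joined 23.9 to 24.9 Mb of chromosome 1 with 24.3 to 25.3 Mb of chromosome 5, with a level of 1.24 in endosperm (3452 contacts) and 1.02 in leaf (1691 contacts), a log2 difference of 0.28 (0.20 to 0.37). It holds the PHE1 bin, whose unbalanced count was 2.06 times the median bin in endosperm and 1.07 times in leaf. Without that bin, or without the joined segments, 0 blocks passed the limit.

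The strongest blocks in endosperm were otherwise of outer arms: 28.9 to 29.9 Mb of chromosome 1 with the first blocks of chromosome 3 (1.25 in endosperm, 1.18 in leaf) and of chromosome 5 (1.21 in endosperm, 1.16 in leaf). In leaf they were 1.1 to 2.1 Mb of chromosome 3 with 4.1 to 5.1 Mb of chromosome 5 (1.15 in endosperm, 1.31 in leaf), the first block of 3N with 15.7 to 16.7 Mb of chromosome 4 (1.09 in endosperm, 1.28 in leaf) and the last block of 2S with 16.7 to 17.7 Mb of chromosome 4 (1.14 in endosperm, 1.28 in leaf). Of the 3 weakest blocks, all in leaf and 2 in endosperm paired a block with a mean relative position under 0.05 with one farther out. In endosperm these were 6.1 to 7.1 Mb of chromosome 3 with 14.3 to 15.3 Mb of chromosome 5 (0.851 in endosperm, 0.882 in leaf) and 4.9 to 5.9 Mb of chromosome 1 with 10.1 to 11.1 Mb of chromosome 3 (0.868 in endosperm, 0.959 in leaf). The exception was 20.9 to 21.9 Mb of chromosome 1 with 3.1 to 4.1 Mb of chromosome 3 (0.872 in endosperm, 1.01 in leaf). In leaf the weakest was 5.9 to 6.9 Mb of chromosome 1 with 14.3 to 15.3 Mb of chromosome 5 (0.932 in endosperm, 0.839 in leaf), followed by 5.7 to 6.7 Mb of chromosome 4 with 4.1 to 5.1 Mb of chromosome 5 (0.901 in endosperm, 0.861 in leaf) and 10.1 to 11.1 Mb of chromosome 3 with 14.7 to 15.7 Mb of chromosome 4 (0.960 in endosperm, 0.876 in leaf).

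After the block at chromosomes 1 and 5, the largest rises were of 0.7 to 1.7 Mb of chromosome 2, with 5.7 to 6.7 Mb of chromosome 4 (1.11 in endosperm, 0.932 in leaf, log2 0.25) and with 16.3 to 17.3 Mb of chromosome 5 (1.06 in endosperm, 0.911 in leaf, log2 0.22). Most of this stretch lies in the joined segment, which ends at 1.5 Mb. The largest falls were the last block of 2S with 21.3 to 22.3 Mb of chromosome 5 (0.964 in endosperm, 1.14 in leaf, log2 -0.24), the first block of 3N with 15.7 to 16.7 Mb of chromosome 4 (log2 -0.23) and 11.7 to 12.7 Mb of chromosome 2 with 9.1 to 10.1 Mb of chromosome 5 (0.907 in endosperm, 1.06 in leaf, log2 -0.23).

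Single pairs of bins stood far above the rest in a few places, which were chosen after their values were seen. Pairs over 3 times the mean of all members numbered 19 in endosperm and 9 in leaf, out of 295215. The strongest pair in endosperm joined 12.1 to 12.2 Mb of chromosome 4 with 7.8 to 7.9 Mb of chromosome 5, at 21.1 times the mean of all members in endosperm (517 contacts) and 17.1 times in leaf (340 contacts). The strongest in leaf joined 15.3 to 15.4 Mb of chromosome 2 with 8.7 to 8.8 Mb of chromosome 4, at 14.97 times in endosperm (270 contacts) and 19.3 times in leaf (273 contacts). Both were shared by the tissues and were 1 bin wide: the 8 pairs around the first had a mean of 0.873 in endosperm and 1.101 in leaf, and those around the second 0.995 in endosperm and 0.603 in leaf.

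A different form was seen for the PHE1 bin of chromosome 1. Its contacts with 24.6 to 24.8 Mb of chromosome 5 were 6.77 times the mean of all members in endosperm (634 contacts over 2 pairs) and 1.196 times in leaf (47 contacts). On both sides the endosperm value stayed raised over several bins, at 2.32 times from 24.1 to 24.6 Mb and 2.40 times from 24.8 to 25.3 Mb of chromosome 5, where leaf had 1.04 and 0.923 times. The bins on both sides of the PHE1 bin had 1.85 times at 24.6 to 24.8 Mb in endosperm and 0.968 times in leaf. The part of the bin's extra unbalanced counts in these contacts was not tested.

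**Figure D5:**
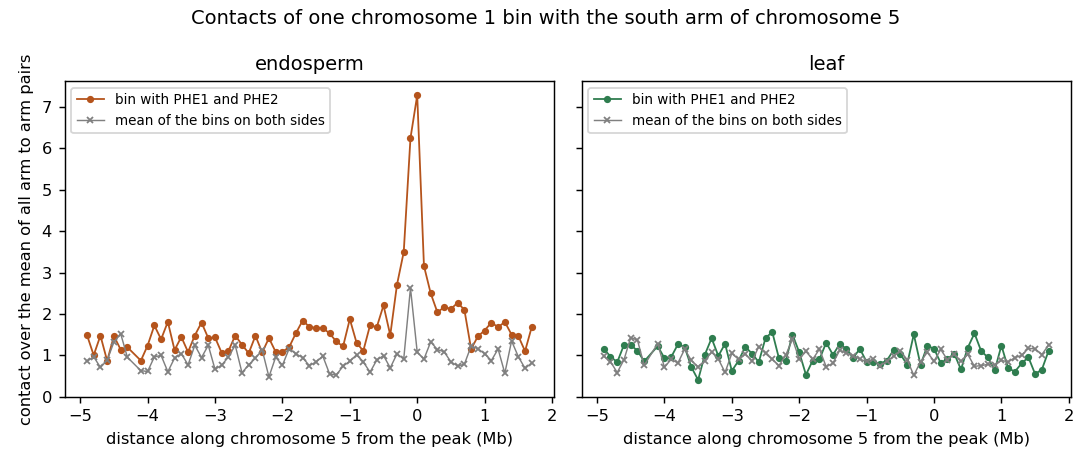
Contact of the chromosome 1 bin that holds PHE1 and PHE2 with bins of the south arm of chromosome 5, over the mean of all members (y axis, a ratio), by distance from the strongest bin (x axis, Mb), in endosperm (left) and leaf (right). Crosses give the mean of the bins on both sides of it on chromosome 1, and the peak of 7.28 in endosperm has a leaf value of 1.16.

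The raised contact of the PHE1 bin reached beyond chromosome 5. Its mean was 1.05 with chromosome 3 in endosperm and 0.968 in leaf, 1.05 with chromosome 4 in endosperm and 0.989 in leaf, and 1.296 with chromosome 5 in endosperm and 0.994 in leaf. Without 23.6 to 25.8 Mb of chromosome 5 its level was 1.098 in endosperm and 0.983 in leaf. Other strong pairs included 28.3 to 28.4 Mb of chromosome 1 with 10.2 to 10.3 Mb of chromosome 4 (4.94 times in endosperm, 100 contacts, and 1.27 times in leaf, 20 contacts), whose 8 surrounding pairs had a mean of 1.124 in endosperm and 0.958 in leaf. In leaf, 6.0 to 6.1 Mb of chromosome 4 with 23.1 to 23.2 Mb of chromosome 5 had 4.60 times in endosperm (80 contacts) and 7.41 times in leaf (104 contacts).

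Genes with known roles in endosperm or leaf were used to ask whether their bins met each other more in one tissue. A total of 77 genes in 6 groups were placed in bins, and contact between bins of a group on different chromosomes was set over the mean of all members. It was 0.959 in endosperm and 0.963 in leaf for 8 paternally expressed imprinted genes (log2 interval -0.38 to 0.36). This rested on 6 pairs of bins with 151 contacts in endosperm and 102 in leaf. All of these pairs held the bin of the paternally expressed gene ADM on chromosome 4. Contact was 1.13 in endosperm and 0.965 in leaf for 7 maternally expressed imprinted genes. For 10 endosperm regulators such as AGL61, a MADS-box factor, it was 0.988 in endosperm and 1.02 in leaf. It was 0.980 in endosperm and 1.004 in leaf for 14 seed storage genes, 0.918 in endosperm and 0.984 in leaf for 20 photosynthesis genes, and 0.992 in endosperm and 1.04 in leaf for 18 Polycomb targets, genes silenced by histone methylation. The interval of endosperm over leaf held 0 for all 6 groups. The widest difference, of the maternally expressed genes, rested on 13 pairs of bins with 344 contacts in endosperm and 227 in leaf (log2 0.23, -0.016 to 0.47).

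Taken by single bins against all other arms, bins of these genes were called about as often as arm bins at large. Of the paternally expressed genes 2 of 7 arm bins were higher in endosperm and 0 lower, from the PHE1 bin down to HDG3, a homeodomain factor (0.986 in endosperm, 1.01 in leaf, log2 -0.033, interval across 0). The 2 were the PHE1 bin, which lies in a joined segment, and that of PEG2 (1.01 in endosperm, 0.977 in leaf, log2 0.047). Of the maternally expressed genes 1 of 6 was higher, that of AGL36, a MADS-box gene (1.02 in endosperm, 0.981 in leaf, log2 0.062), and MEA, a Polycomb subunit of the seed, was at the low end (1.04 in endosperm, 1.05 in leaf, log2 -0.015, interval across 0). Of the regulators 1 of 9 was higher, with AGL61 (0.965 in endosperm, 0.927 in leaf, log2 0.058), and 1 lower, with MSI1, a histone-binding Polycomb subunit (0.995 in endosperm, 1.02 in leaf, log2 -0.038). For comparison, 13.7% of all arm bins were called in each direction.

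The storage genes had 1 of 11 bins higher, that of the oleosin OLEO2 (1.01 in endosperm, 0.966 in leaf, log2 0.067), and 3 lower, among them the cruciferin CRU3 (0.982 in endosperm, 1.02 in leaf, log2 -0.057). The photosynthesis genes had 3 of 13 bins higher, with PSAD1 of photosystem I at the top (1.05 in endosperm, 1.003 in leaf, log2 0.059), and 2 lower, with the light-harvesting gene LHCA3 at the bottom (0.950 in endosperm, 0.998 in leaf, log2 -0.071). The Polycomb targets had 1 of 16 bins higher, that of the stem cell regulator WUS (1.03 in endosperm, 0.990 in leaf, log2 0.057), and 4 lower, with the boundary gene CUC2 at the bottom (0.981 in endosperm, 1.02 in leaf, log2 -0.059). The bins of PEG2, OLEO2, AGL36 and WUS lie in the inner 0.3 of their arms, where bins of any kind were more often higher in endosperm. MYB3R2, AGL28, LHCB2.1, LHCB2.2, LHCB4.1, PSBO1, KNAT1 and SEP2 lie at a chromosome end or in a pericentromere and have no member pairs.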

How the data were processed

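In situ Hi-C of 4 samples, 2 replicates each of endosperm and leaf, was deposited as 1 balanced matrix per tissue at 100 kb and 1 at 200 kb, with replicates pooled. The authors deposited the values as balanced contact signal, and per the submitters' processing notes HiC-Pro 2.9.0, Bowtie2 and the build TAIR10 were used. Neither the restriction enzyme nor the read filters are stated in the labels. Whole counts were recovered by dividing out 1 balancing factor per bin: 100% of values were whole within 0.01. Bins with values for fewer than 50% of other bins were left out. Intervals use the Poisson variance of the counts with balancing factors kept (95%, normal quantile 1.96). With 1 map per tissue no p-value was computed. Gene names and gene cover come from a RefSeq gene table of TAIR10.1, positions from the maps' bins. A block needed at least 50 member pairs. Named items are the 4 highest and lowest arm pairs and 4 largest rises and falls, 5 bins each way, 3 blocks each way, and the highest and lowest bin of each gene list. Members, lists and tests were chosen with earlier results of these data known. Measures were tested on simulated data. Computation used Python 3.11.15, numpy 2.4.6 and pandas 2.3.3. The sequences of these regions were not used here.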

Additional observations from a re-analysis of the deposited data

How the results depend on the processing

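No paired analysis was possible because each tissue has 1 map that pools its replicates. The preference for equal position kept its direction within each tissue under all 15 alternatives, from 0.023 to 0.070 in endosperm and from 0.022 to 0.095 in leaf, and so did the gene cover contrast under 13. The tissue difference of equal over unequal position was -0.021 and became 0.00075 with positions in Mb, -0.0046 with both bins' means removed, -0.0012 with the expectation from both bins' interchromosomal means, -0.0092 in counts without balancing, -0.044 with limits of 0.05 and 0.7 and -0.0050 with a limit of 0.2. The outer against inner difference of -0.043 became 0.0064 with both bins' means removed (leaf alone -0.00088), 0.035 without balancing, 0.025 with the bin expectation (leaf alone -0.0021), -0.031 with inner and outer divided at 0.5 and -0.051 without chromosomes 1 and 2.

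The level difference of -0.030 became 0.0063 with the bin expectation, -0.044 without chromosome 1 with 2 in the interchromosomal mean, -0.0435 without balancing, -0.031 at 200 kb, -0.048 without the joined segments, -0.045 without chromosomes 1 and 2, -0.032 with 10 bins left out at each end and -0.028 without repeat bins. The spread over arm pairs, endosperm minus leaf in log2 SD, was 0.0052 and became -0.0019 with the 8 long arms, -0.017 without balancing and -0.043 with the bin expectation. The gene cover difference of -0.0002 became 0.015 with the top and bottom 10% of bins, 0.014 with both bins at a relative position over 0.5 and -0.0096 at 200 kb. Blocks past the limit numbered 215 at 1.1-fold, 0 at 1.3-fold, 4 without balancing, 5 with the bin expectation, 2 at 200 kb, and 0 without the joined segments, without chromosomes 1 and 2, without repeat bins, without the PHE1 bin or without pairs over 3 times the mean. Of the gene lists, 1 of 5 was called without chromosomes 1 and 2. The cause of these changes was not tested. The alternatives on the PHE1 bin, strong pairs, gene cover with position, and bin means for the outer contrast were chosen after seeing the data. Counting intervals do not hold the spread between plants or libraries, so differences of a few percent cannot be set against it.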
